A study of Mus musculus with 40 samples.

Results

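Enzymes that detoxify epoxides, aldehydes and esters were examined in mouse liver through 10 genes: the epoxide hydrolases Ephx1 and Ephx2, the aldehyde oxidase Aox1, the aldehyde dehydrogenases Aldh1a1, Aldh1a7, Aldh2 and Aldh3a2, and the carboxylesterases Ces1g, Ces2a and Ces3a. Members were found by symbol alone, and every probe set of the array that is annotated to 1 of these symbols and to no other gene was taken. This gave 13 probe sets, all 13 of which passed the expression minimum, for 9 of the 10 genes among the 9695 genes tested. Ces3a had no value, because its only probe set is also annotated to Ces3b. By RefSeq (GRCm38.p6), Aox1 and Ephx1 lie on chromosome 1, Aldh2 on 5, the carboxylesterases Ces1g, Ces2a and Ces3a on 8, Aldh3a2 on 11, Ephx2 on 14, and Aldh1a1 and Aldh1a7 on 19. Aldh2 had 5 probe sets and the other 8 measured genes had 1 each, and a gene is represented by its probe set of highest mean.

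Liver RNA of 40 male mice, about 12 weeks old, was hybridised to Affymetrix mouse expression arrays, 1 array per mouse, in 10 groups of 4 mice. The Nrf2-null and the wild-type (Wt) mice had the C57BL/6J background, and the null allele is carried in all cells of the body, not in hepatocytes alone. Mice of each genotype were gavaged with vehicle (Cremophor EL, dimethylsulfoxide and phosphate-buffered saline), D3T at 300 μmol/kg, or CDDO-Im at 3, 10 or 30 μmol/kg. Dosing was repeated 3 times within 5 days and the liver was removed 24 hours after the final dose. D3T is a dithiolethione and CDDO-Im the imidazolide of a synthetic triterpenoid, and both activate Nrf2 by reacting with its inhibitor Keap1.

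Each class of these enzymes removes a reactive or lipophilic group. Epoxide hydrolases add water to an epoxide and give a diol, Ephx1 in the endoplasmic reticulum, where it meets epoxides made by cytochromes P450, and Ephx2 in the cytosol and peroxisomes, where it acts on epoxides of fatty acids. Aldehyde dehydrogenases and the molybdenum enzyme aldehyde oxidase turn aldehydes into acids, and carboxylesterases split esters and amides of drugs and lipids. Nrf2 is a transcription factor that is held at a low level by Keap1, and on activation it enters the nucleus and binds antioxidant response elements of its target genes.

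The promoters of the 3 members that stood furthest apart between the genotypes are shown, all 3 lower in Nrf2-null liver, as RefSeq sequence of assembly GRCm38.p6 from 250 bases before to 50 after a transcription start. Both strands were searched for TGACNNNGC, the core of the antioxidant response element, and GCGTG, the core of the xenobiotic response element, and, after TGACNNNGC had been found in no member, also for TGATNNNGC. Capitals mark a match to any of the 3 motifs. Ces1g lies on the minus strand at chr8:93337160-93337459, Aox1 on the plus strand at chr1:58029719-58030018 and Ephx1 on the minus strand at chr1:181017520-181017819.
Ces1g: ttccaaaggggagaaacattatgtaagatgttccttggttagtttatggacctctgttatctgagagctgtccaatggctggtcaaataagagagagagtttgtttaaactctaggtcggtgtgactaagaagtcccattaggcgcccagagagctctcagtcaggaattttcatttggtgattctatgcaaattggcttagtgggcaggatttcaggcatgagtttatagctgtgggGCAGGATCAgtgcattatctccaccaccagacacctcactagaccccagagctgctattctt
Aox1: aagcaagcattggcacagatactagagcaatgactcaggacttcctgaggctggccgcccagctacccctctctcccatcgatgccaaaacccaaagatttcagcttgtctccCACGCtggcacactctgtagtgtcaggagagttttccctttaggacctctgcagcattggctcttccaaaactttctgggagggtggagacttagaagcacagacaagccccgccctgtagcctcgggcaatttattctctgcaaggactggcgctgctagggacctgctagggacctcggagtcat
Ephx1: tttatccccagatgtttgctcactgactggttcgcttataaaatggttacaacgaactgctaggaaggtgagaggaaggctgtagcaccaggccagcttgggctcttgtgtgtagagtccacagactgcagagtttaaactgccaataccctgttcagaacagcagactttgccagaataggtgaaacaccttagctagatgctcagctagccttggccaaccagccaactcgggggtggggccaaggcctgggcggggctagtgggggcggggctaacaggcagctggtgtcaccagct
The match in Ces1g is TGATNNNGC on the opposite strand, from 12 bases before the start, and the match in Aox1 is GCGTG on the opposite strand, from 137 bases before the start. The Ephx1 window held none of the 3. Entries were found for 7 of the 10 members, in 8 promoters, and TGACNNNGC was in 0 of these 8, against 12.4% of all 32851 promoters of the table. TGATNNNGC was also in Ces2a (8.09% of all promoters) and GCGTG also in Aldh3a2 (32.4% of all promoters). A match is a description of letters in this window and not a binding site.

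The promoters of Aldh1a1 and Aldh1a7 are shown because these neighbours on chromosome 19 had the highest within-group correlation of any pair of members (values are given with the other correlations). Aldh1a1 and Aldh1a7 both encode cytosolic aldehyde dehydrogenases, and Aldh1a1 is best known for the oxidation of retinal. The Aldh1a1 window, 1 of 2 in the table, is on the plus strand at chr19:20601718-20602017, the Aldh1a7 window on the minus strand at chr19:20727507-20727806, and capitals mark the longest run of letters that they share, 65 bases that begin 94 bases before the start in both.
Aldh1a1: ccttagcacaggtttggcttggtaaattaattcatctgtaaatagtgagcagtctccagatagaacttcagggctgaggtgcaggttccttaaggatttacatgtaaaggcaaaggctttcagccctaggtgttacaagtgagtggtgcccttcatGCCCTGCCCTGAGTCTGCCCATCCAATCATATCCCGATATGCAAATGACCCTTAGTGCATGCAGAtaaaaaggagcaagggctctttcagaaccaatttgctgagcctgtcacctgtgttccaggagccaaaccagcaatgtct
Aldh1a7: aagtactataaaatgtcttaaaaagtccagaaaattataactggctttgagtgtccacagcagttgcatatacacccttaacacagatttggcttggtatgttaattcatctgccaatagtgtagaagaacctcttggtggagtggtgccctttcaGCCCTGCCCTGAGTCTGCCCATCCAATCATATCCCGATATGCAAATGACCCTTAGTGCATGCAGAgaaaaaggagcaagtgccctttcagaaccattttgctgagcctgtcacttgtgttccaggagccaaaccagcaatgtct
Over the last 200 bases, set letter against letter, 156 (78.0%) were the same. These windows say nothing of the array's probes. Aldh1a1 and Aldh1a7 are close relatives, and whether their probes bind both transcripts was not tested.

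Before the members, the arrays themselves were checked. Nfe2l2, the gene of Nrf2, read log2 2.72 to 3.10 in the 20 Nrf2-null mice and 10.77 to 11.75 in the 20 Wt mice on 1 of its probe sets. For vehicle mice this gave p = 0.029 in a two-sided exact permutation test, as low as groups of 4 can reach, and the other probe set, on which the genotypes overlapped, gave an exact p of 0.11. The array of Nrf2-null D3T replicate 4 had a mean correlation of 0.961 with the other arrays of its group, against 0.974 to 0.992 for the remaining 39 arrays. In that mouse the markers of endothelial cells (4 of 5 measured) summed to log2 10.58, against 12.02 to 12.32 in the other 3 mice of the group, and those of Kupffer cells (6 of 6) to 11.60, against 13.21 to 13.74, while the hepatocyte markers (6 of 6) were at 18.45, against 18.42 to 18.44. No lymphocyte marker passed the expression minimum. In whole liver, fewer cells of a type and less RNA per cell cannot be told apart. Animal numbers in the labels place the D3T and 30 μmol/kg mice of both genotypes in a range of their own, apart from the vehicle, 3 and 10 μmol/kg mice, so a difference between these sets of animals and an effect of D3T or of 30 μmol/kg cannot be told apart in comparisons with vehicle. The same holds for 30 against 10 μmol/kg and for 10 μmol/kg against D3T, which also set animals of the 2 ranges against each other. Nothing in the labels says more of separate litters or days, and p-values measure the spread between these mice.

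The clearest pattern was between genotypes. Ces1g, Aox1, Ephx1 and Aldh1a1 were lower in all 20 Nrf2-null mice than in any of the 20 Wt mice, whatever the treatment, a separation found for 31 of the 9695 genes (0.32%), with 2 genes (0.0206%) separated the other way. With vehicle alone, 4 of the 9 measured members fell in Nrf2-null liver and 0 rose, where 10.8% of all genes were called and 4.97% were called lower. The median change of the 9 members was -0.45 and that of all genes 0.01 on the log2 scale. Higher calls were 54.1% of all calls as deposited and 32.3% after each array was centred on its median. A gene was called where the p of limma's test, adjusted over all 9695 genes by Benjamini and Hochberg, was under 0.05. No hepatocyte, Kupffer, stellate or endothelial cell marker was called between the vehicle groups. Summed stellate cell markers were 13.67 to 13.91 in Nrf2-null and 13.50 to 13.57 in Wt vehicle mice. Endothelial sums were 12.16 to 12.47 and 11.91 to 12.13, and both were without overlap. Hepatocyte sums (18.18 to 18.44 and 18.38 to 18.41) and Kupffer cell sums (13.26 to 13.95 and 13.15 to 13.79) overlapped. Their part in the genotype gaps was not tested.

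Ces1g, a carboxylesterase that in mouse liver acts on lipid esters, had the widest gap. Its log2 intensity was 9.12, 8.22, 9.18 and 8.52 in Nrf2-null vehicle mice, against 12.77, 12.44, 12.28 and 12.80 in Wt vehicle mice. The groups did not come near each other, and the change was -3.81 ± 0.26 (SE) on the log2 scale, or 14.1-fold lower in Nrf2-null liver (adjusted p = 8.8e-13). Over all treatments Nrf2-null mice read 8.22 to 10.43 (median 8.93) and Wt mice 12.28 to 13.79 (median 13.06).

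Aox1, which oxidises aldehydes and nitrogen heterocycles, read 9.0, 9.42, 9.69 and 10.04 in Nrf2-null vehicle mice, against 12.04, 11.93, 12.37 and 11.89 in Wt vehicle mice. It fell by 2.52 ± 0.19 (SE) on the log2 scale, or 5.74-fold (adjusted p = 7.1e-12), and the Nrf2-null mice stayed between 8.07 and 10.04 under all treatments, against 11.66 to 12.87 in Wt mice. Ephx1 read 11.96, 11.68, 11.99 and 11.41 in Nrf2-null vehicle mice, against 13.21, 13.31, 13.46 and 13.19 in Wt vehicle mice. Here too no mouse of a genotype lay within the other, and Ephx1 fell by 1.53 ± 0.15 (SE), or 2.90-fold (adjusted p = 3.1e-09).

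**Figure D1:**
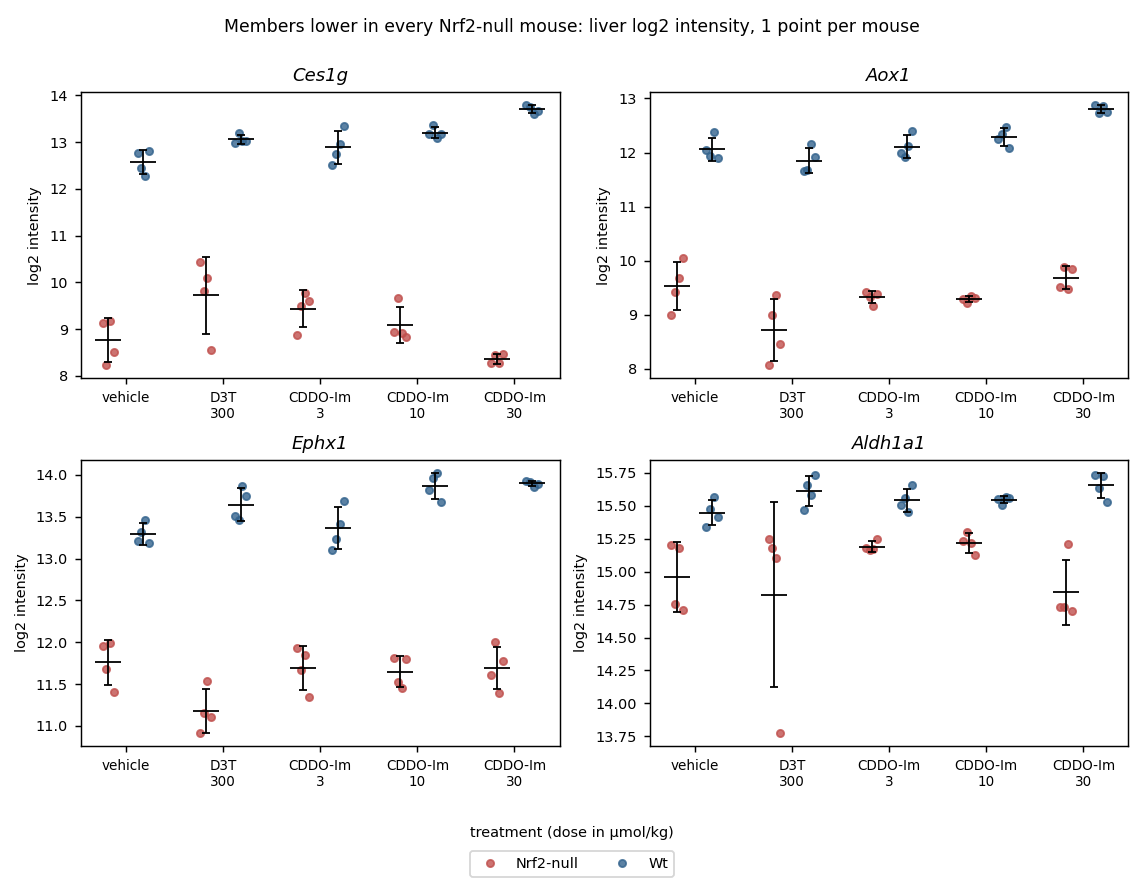
Log2 intensity of Ces1g, Aox1, Ephx1 and Aldh1a1 in every mouse (1 point per mouse, Nrf2-null left of Wt within each treatment), with doses in μmol/kg on the horizontal axis and the mean ± SD of 4 mice in black. In each panel all 20 Nrf2-null mice lie below all 20 Wt mice, and in Ces1g, Aox1 and Ephx1 the Wt points are highest at 10 or 30 μmol/kg CDDO-Im.

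The fourth call, Ces2a, was small. Ces2a, a carboxylesterase of the endoplasmic reticulum, read 12.08, 11.73, 12.39 and 11.85 in Nrf2-null vehicle mice, against 12.30, 12.66, 12.49 and 12.41 in Wt vehicle mice. Replicate 3 of the Nrf2-null mice lay above the lowest Wt mouse, the change was -0.45 ± 0.14 (SE, adjusted p = 0.034), and it was no longer called in 8 of the alternatives, among them the fit without any of Wt replicates 2, 3 and 4 or Nrf2-null replicates 2 and 4.

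Aldh1a1 and Aldh1a7 were both lower in every Nrf2-null vehicle mouse without passing the test, so that with Ces1g, Aox1 and Ephx1 the members without overlap were 5 (12.6% of all genes). Aldh1a1 read 15.20, 14.76, 15.18 and 14.71 in Nrf2-null vehicle mice, against 15.34, 15.48, 15.56 and 15.41 in Wt vehicle mice (-0.49 ± 0.18 SE, adjusted p = 0.069). Aldh1a7 read 13.84, 13.65, 13.56 and 13.71 in Nrf2-null vehicle mice, against 14.05, 14.09, 14.03 and 14.07 in Wt vehicle mice (-0.37 ± 0.17 SE, adjusted p = 0.16). The gap of Aldh1a1 held over all treatments, from 13.78 to 15.30 in Nrf2-null mice against 15.34 to 15.73 in Wt mice, but at its narrowest it was only a few hundredths of a log2 unit. The vehicle difference of Aldh1a1 was called after centring (-0.55, adjusted p = 0.039), without Nrf2-null replicate 1 (-0.57, adjusted p = 0.046) and with array weights (-0.63, adjusted p = 0.00022). That of Aldh1a7 was called with array weights (-0.38, adjusted p = 0.015) and when only these 2 groups were fitted (-0.37, adjusted p = 0.035). The highest Nrf2-null value of Aldh1a7, 14.12, lay above its lowest Wt value, 14.03.

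Ephx2, Aldh2 and Aldh3a2 were not called between the vehicle groups, though array weights called Ephx2 (-0.28, adjusted p = 0.045) and Aldh3a2 (-0.65, adjusted p = 0.038) lower. Without weights the changes were as follows. Ephx2 changed by -0.17 (95% confidence interval -0.38 to 0.05), Aldh2, the mitochondrial enzyme that clears acetaldehyde, by 0.02 (-0.12 to 0.17), and Aldh3a2, which oxidises long-chain fatty aldehydes, by -0.30 (-0.88 to 0.27). The interval of Aldh2 is the narrowest of the 9. Its sign turned on 1 mouse, since the value was -0.08 without Nrf2-null replicate 1, the highest at 15.00. Aldh3a2 varied most within a group, at 11.62, 10.16, 11.57 and 10.46 in Nrf2-null vehicle mice.

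**Figure D2:**
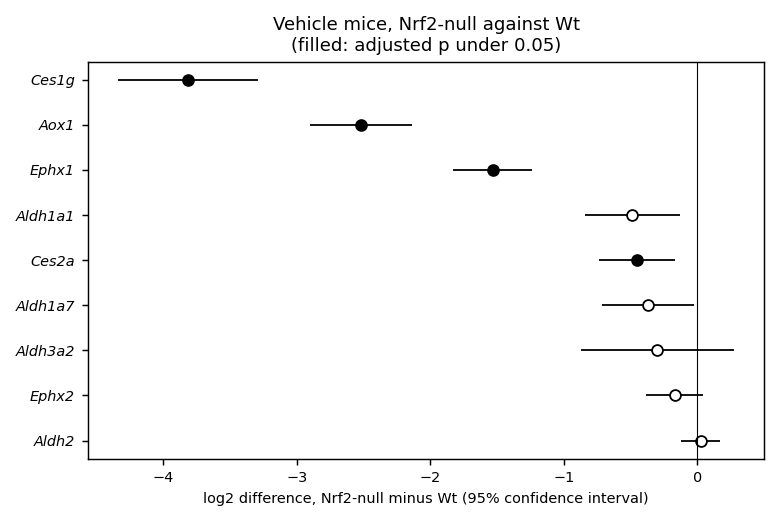
Log2 difference between Nrf2-null and Wt vehicle mice for the 9 measured members (points, 4 mice per genotype), with 95% confidence intervals as lines and filled points where the adjusted p was under 0.05. Ces1g, Aox1 and Ephx1 lie at -3.81, -2.52 and -1.53, and the other 6 members lie between -0.49 and 0.02.

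D3T changed none of the 9 members by the test in Wt liver, where 4.23% of all genes were called. With limma 4 members had an unadjusted p under 0.05. The share of all genes under that threshold was not counted, here or in later comparisons. The exact Wilcoxon test of the study's methods, run without the study's other filters, passed 3 at an unadjusted threshold. These were the 3 members (Aldh1a7, Ces1g and Ces2a) whose groups did not overlap, as 14.1% of all genes did not. Aldh1a7 came nearest, at 14.58, 14.67, 14.41 and 14.55 in D3T mice, against 14.05, 14.09, 14.03 and 14.07 in vehicle mice. Every D3T mouse was above every vehicle mouse (0.49 ± 0.17 SE, adjusted p = 0.091). The SE rests on the spread within all 10 groups. For Aldh1a7 the SD was 0.11 in Wt D3T and 0.03 in Wt vehicle mice, but 0.72 in Nrf2-null D3T mice. The call was made when the fit held the 2 Wt groups only (adjusted p = 0.0035) and with array weights (adjusted p = 0.00031). Ces1g read 12.97, 13.20, 13.03 and 13.02 in D3T mice, against 12.77, 12.44, 12.28 and 12.80 in vehicle mice (0.48 ± 0.26 SE, adjusted p = 0.32), and Ephx1 was higher by 0.35 ± 0.15 (SE, adjusted p = 0.18). Aox1 differed in sign from these, at -0.21 ± 0.19 (SE, adjusted p = 0.61). The clock score described for 10 μmol/kg CDDO-Im was -0.25 ± 0.83 in D3T mice, and with it as a covariate 0 members were still called.

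The lowest dose of CDDO-Im, 3 μmol/kg, called 0 of the 9 members in Wt mice, where 0.474% of all genes were. With limma 2 members, Ephx2 and Ces2a, had an unadjusted p under 0.05, both lower, and the exact Wilcoxon test passed 0. The share of 0.474% is by adjusted p and cannot be set beside these 2 members. Aldh3a2 spread widely at this dose, at 10.29, 10.53, 10.79 and 11.30 in the treated mice, against 11.05, 11.22, 11.46 and 11.28 in vehicle mice, with a change of -0.53 (95% confidence interval -1.10 to 0.05).

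Ephx1 and Aldh2 rose in Wt mice given 10 μmol/kg CDDO-Im, and no member fell. These 2 of 9 stand beside 17.5% of all genes called and 5.06% called higher. Higher calls were 28.9% of all calls as deposited and 43.8% after centring. Ephx1 read 13.82, 13.96, 14.02 and 13.67 in the treated mice, against 13.21, 13.31, 13.46 and 13.19 in vehicle mice. All 4 treated mice were above all 4 vehicle mice, and the rise was 0.58 ± 0.15 (SE) on the log2 scale, or 1.49-fold (adjusted p = 0.0060). Aldh2 read 15.04, 15.07, 14.92 and 14.96 in the treated mice, against 14.66, 14.63, 14.66 and 14.77 in vehicle mice. The groups again stood apart, with a rise of 0.32 ± 0.07 (SE), or 1.25-fold (adjusted p = 0.0027). Ces1g was higher in every treated mouse, at 13.17, 13.37, 13.08 and 13.17, than in any vehicle mouse, but its change of 0.62 ± 0.26 (SE) was not called (adjusted p = 0.090). In all, 5 members had no overlap with vehicle (22.9% of all genes had none), namely these 3, Aldh1a7 (higher) and Ephx2 (lower).

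Some markers of other cells were also called at 10 μmol/kg, and their part in the rises was not tested. A Kupffer cell marker was higher in 1 of 6 (summed level 12.89 to 13.71 in treated mice, against 13.15 to 13.79 in vehicle mice), a stellate cell marker lower in 1 of 4 (13.35 to 13.44 in treated mice, against 13.50 to 13.57 in vehicle mice) and a bile duct marker lower in 1 of 2 (5.84 to 6.32 in treated mice, against 6.25 to 7.06 in vehicle mice). No endothelial marker was called, but their sum was 11.55 to 11.69 in treated mice, against 11.91 to 12.13 in vehicle mice, without overlap. The part of this sum in the rises was not tested either. The stellate cell, endothelial and bile duct sums also include listed markers on the array that did not pass the expression minimum. Clock genes moved with this dose too. A clock score, the mean of 7 evening genes minus that of 5 morning genes, was 2.78 ± 0.81 in Wt mice at 10 μmol/kg, against -2.76 ± 0.14 in Wt vehicle mice (SD, n = 4 each). With the score as a covariate 0 of the 9 members were called at this dose by limma, at changes of 0.50 for Ephx1 (adjusted p = 0.23) and 0.22 for Aldh2 (adjusted p = 0.30), and 33 of all genes were called in place of 1698. The score was 2.30 to 3.99 in Wt mice at 10 μmol/kg and -2.84 to -2.54 in Wt vehicle mice, without overlap. Score and dose can thus hardly be told apart in this fit, and the reason for the lost calls was not tested. At 30 μmol/kg the score was -2.37 ± 0.12, near that of vehicle.

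Ces1g, Aox1, Ephx1 and Aldh2 rose in Wt mice given 30 μmol/kg CDDO-Im, and no member fell, while 23.6% of all genes were called and only 2.81% were called higher. The median change was 0.34 over the 9 members and -0.16 over all genes. Higher calls were 11.9% of all calls as deposited and 53.9% after each array was centred on its median, and these 4 members were called under every alternative tried. Centring raised the median of all genes to 0.01, and the rises were then 1.30 for Ces1g, 0.92 for Aox1, 0.78 for Ephx1 and 0.57 for Aldh2. Hepatocyte markers fell at this dose in 2 of 6 (summed level 18.28 to 18.34 in treated mice, against 18.38 to 18.41 in vehicle mice). A Kupffer cell marker rose in 1 of 6 (13.55 to 13.87 in treated mice, against 13.15 to 13.79 in vehicle mice). No endothelial or stellate cell marker was called, but their sums lay below vehicle without overlap. Endothelial sums were 11.62 to 11.85, against 11.91 to 12.13 in vehicle mice, and stellate cell sums 13.37 to 13.46, against 13.50 to 13.57. The part of these markers in the rises was not tested.

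Ces1g had the largest rise, at 13.79, 13.76, 13.60 and 13.67 in the treated mice, against 12.77, 12.44, 12.28 and 12.80 in vehicle mice. No values overlapped, and the rise was 1.13 ± 0.26 (SE) on the log2 scale, or 2.19-fold (adjusted p = 0.0020). Aox1 read 12.87, 12.74, 12.86 and 12.75 in the treated mice, against 12.04, 11.93, 12.37 and 11.89 in vehicle mice (0.74 ± 0.19 SE, 1.67-fold, adjusted p = 0.0045). Every treated mouse was above the highest vehicle mouse.

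Ephx1 read 13.93, 13.91, 13.86 and 13.89 in mice at 30 μmol/kg, against 13.21, 13.31, 13.46 and 13.19 in vehicle mice (0.60 ± 0.15 SE, 1.52-fold, adjusted p = 0.0030). Aldh2 read 15.19, 15.10, 15.00 and 15.02 in the treated mice, against 14.66, 14.63, 14.66 and 14.77 in vehicle mice (0.40 ± 0.07 SE, 1.32-fold, adjusted p = 0.00025). Both were fully apart from vehicle, and with Ces1g, Aox1, Aldh1a7 and Ephx2 the members without overlap were 6 (28.3% of all genes). Aldh1a7 (0.34, adjusted p = 0.15) was also higher in every treated mouse and Ephx2 (-0.26, adjusted p = 0.067) lower in every treated mouse, and neither was called.

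With 30 against 10 μmol/kg CDDO-Im, limma called 0 of the 9 members in Wt mice, where 19.5% of all genes were, 27.0% of them higher as deposited and 58.1% after centring. One member, Aox1, had an unadjusted p under 0.05, and the exact Wilcoxon test passed the 2 whose groups did not overlap, Aox1 and Ces1g (23.8% of all genes did not overlap). Aox1 was at 12.74 to 12.87 in mice at 30 μmol/kg, against 12.08 to 12.48 at 10 μmol/kg, with no overlap (0.51 ± 0.19 SE, adjusted p = 0.051), and it was called in the fit with each array centred on its median (0.63, adjusted p = 0.017). Ephx1 differed by 0.03 (95% confidence interval -0.27 to 0.32) and Aldh2 by 0.08 (-0.07 to 0.23) between these doses. Vehicle, 3 and 10 μmol/kg mice are of 1 range of animal numbers and 30 μmol/kg mice of the other. Mean levels over the dose series were 13.29, 13.36, 13.87 and 13.90 for Ephx1 with vehicle, 3, 10 and 30 μmol/kg. Those of Aox1 were 12.06, 12.10, 12.29 and 12.80, and those of Ces1g 12.57, 12.89, 13.20 and 13.70.

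**Figure D3:**
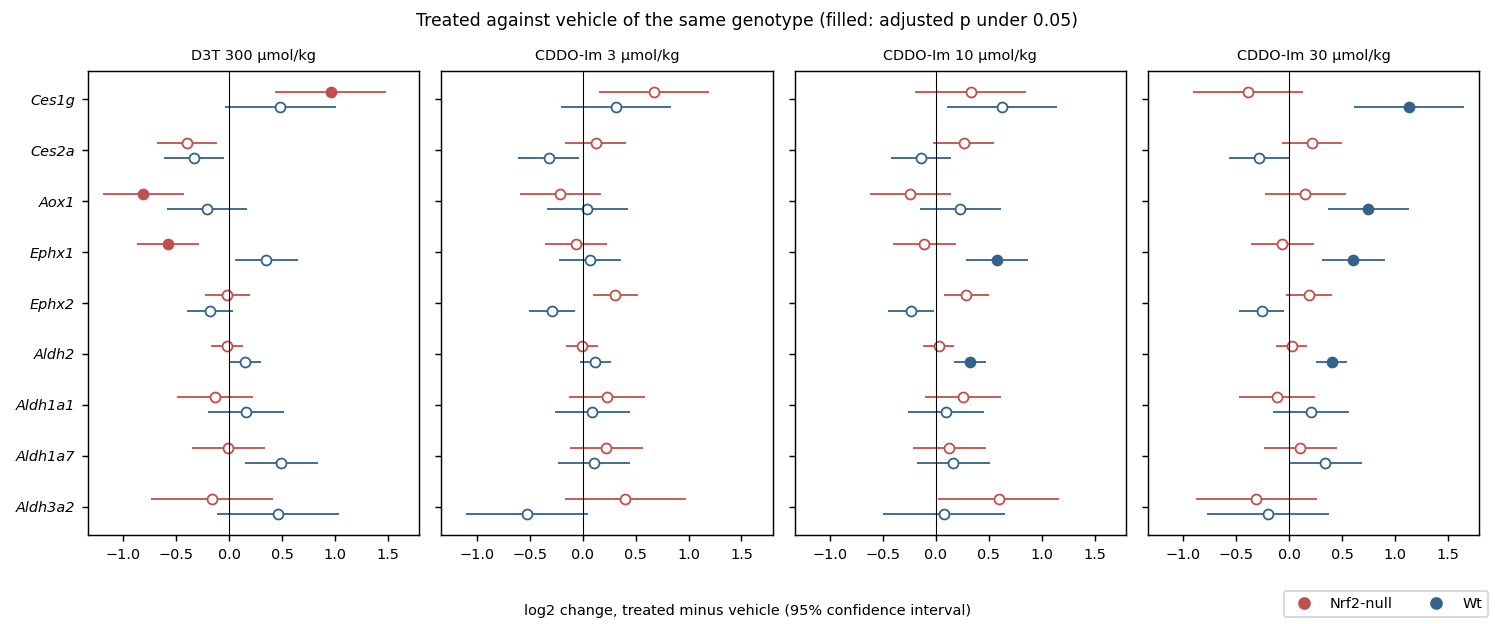
Log2 change of the 9 measured members in treated against vehicle mice of the same genotype (Nrf2-null above Wt for each gene, 4 mice per group), in 4 panels for D3T and 3, 10 and 30 μmol/kg CDDO-Im, with 95% confidence intervals as lines and filled points where the adjusted p was under 0.05. The filled Wt points are Ephx1 and Aldh2 at 10 μmol/kg and Ces1g, Aox1, Ephx1 and Aldh2 at 30 μmol/kg, and the filled Nrf2-null points are Ces1g, Aox1 and Ephx1 with D3T.

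The compounds were set against each other in Wt liver, at doses in μmol/kg that differ. At 30 μmol/kg CDDO-Im against 300 μmol/kg D3T, groups whose animal numbers share a range, Aox1 and Aldh2 were higher and no member was lower, where 30.6% of all genes were called and 4.45% were called higher. Higher calls were 14.5% of all calls as deposited and 53.8% after centring. Aox1 read 12.87, 12.74, 12.86 and 12.75 with CDDO-Im, against 11.66, 11.68, 12.15 and 11.91 with D3T. The groups did not overlap, and the difference was 0.95 ± 0.19 (SE) on the log2 scale, or 1.94-fold (adjusted p = 0.00030). Aldh2 read 15.19, 15.10, 15.00 and 15.02 with CDDO-Im, against 14.97, 14.84, 14.83 and 14.66 with D3T (0.25 ± 0.07 SE, adjusted p = 0.0091). Its lowest CDDO-Im mouse was just above its highest D3T mouse, and the call was lost when the mean of its 5 probe sets was used. Ces1g (0.65, adjusted p = 0.053) and Aldh3a2 (-0.66, adjusted p = 0.072) also had no overlap between the groups, which makes 4 members (32.3% of all genes), and were not called. A hepatocyte marker was lower in 1 of 6 (summed level 18.28 to 18.34 with CDDO-Im, against 18.38 to 18.45 with D3T). A Kupffer cell marker was higher in 1 of 6 (13.55 to 13.87 with CDDO-Im, against 13.12 to 13.64 with D3T), and the 1 measured small intestine marker was lower. No endothelial marker was called, but their sum was 11.62 to 11.85 with CDDO-Im, against 11.90 to 11.98 with D3T, without overlap. The part of these markers in the differences was not tested.

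At 10 μmol/kg CDDO-Im against D3T, mice of different ranges of animal numbers, 0 of the 9 members were called by limma, where 18.7% of all genes were, 26.1% of them higher as deposited and 44.6% after centring. Unadjusted p-values were under 0.05 for Aldh2 (0.17) and Aox1 (0.44), and the exact Wilcoxon test passed 1 member, Aldh1a7, which was lower with CDDO-Im without overlap (-0.33, adjusted p = 0.18; 22.9% of all genes had no overlap). For Ephx1 the difference was 0.23 (95% confidence interval -0.07 to 0.52) and for Ces1g 0.14 (-0.38 to 0.66).

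In Nrf2-null liver D3T changed 3 members, with Ces1g higher and Aox1 and Ephx1 lower, where 4.09% of all genes were called, 2.27% higher and 1.83% lower. Ces1g read 10.43, 9.81, 10.09 and 8.54 in D3T mice, against 9.12, 8.22, 9.18 and 8.52 in vehicle mice. Replicates 1 to 3 were above all vehicle mice and replicate 4, the array that stood apart, was among them (0.96 ± 0.26 SE, adjusted p = 0.027). Aox1 read 8.07, 9.0, 9.36 and 8.47 in D3T mice, against 9.0, 9.42, 9.69 and 10.04 in vehicle mice, with replicates 2 and 3 within the vehicle range (-0.81 ± 0.19 SE, adjusted p = 0.011). Ephx1 read 10.91, 11.15, 11.54 and 11.11 in D3T mice, against 11.96, 11.68, 11.99 and 11.41 in vehicle mice, where replicate 3 alone reached the lowest vehicle mouse (-0.58 ± 0.15 SE, adjusted p = 0.019).

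None of these 3 calls was made with the Wilcoxon test or when only the groups of the comparison were fitted. Without Nrf2-null D3T replicate 4 the members called were 5, namely Ces1g (1.35, adjusted p = 0.00023), Aldh1a7 (0.35, adjusted p = 0.0083), Aox1 (-0.73, adjusted p = 0.024), Ces2a (-0.50, adjusted p = 0.033) and Ephx1 (-0.56, adjusted p = 0.028). The share of all genes called that is given above, 4.09%, is of the fit with replicate 4 and cannot be set beside these 5. Replicate 4 was the lowest of its group for Aldh1a1 (13.78, against 15.10 to 15.25 in the other 3), Aldh1a7 (12.61, against 13.93 to 14.12) and Aldh3a2 (9.56, against 11.09 to 11.33). The change of Aldh1a1 was -0.14 with it and 0.21 without it, and that of Aldh3a2 -0.16 with it and 0.24 without it. Without D3T replicate 1 only Aox1 was called.

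CDDO-Im called 0 of the 9 members in Nrf2-null liver at 3, 10 and 30 μmol/kg by limma, where 0.774%, 0.0722% and 0.175% of all genes were called. Members with an unadjusted p under 0.05 were Ces1g and Ephx2 at 3 μmol/kg, Ephx2 and Aldh3a2 at 10 μmol/kg and 0 at 30 μmol/kg. The share of all genes under that threshold was not counted. The exact Wilcoxon test passed 0, 1 and 0. The 1 member was Ephx2, without overlap at 10 μmol/kg (3.46% of all genes). Ces1g read 8.27, 8.45, 8.28 and 8.48 in Nrf2-null mice at 30 μmol/kg, against 9.12, 8.22, 9.18 and 8.52 in Nrf2-null vehicle mice (-0.39, 95% confidence interval -0.91 to 0.13). The other members called in Wt liver at this dose had changes of 0.15 (-0.23 to 0.53) for Aox1, -0.07 (-0.36 to 0.23) for Ephx1 and 0.02 (-0.13 to 0.17) for Aldh2. The clock score was uneven in the Nrf2-null mice at 10 μmol/kg, at -2.55 to 2.33, and in the Nrf2-null vehicle mice, at 3.08 in replicate 1 and -3.31 to -2.46 in the other 3. Without replicate 1, Ephx2 was called higher at 3 μmol/kg (0.38, adjusted p = 0.045) and at 10 μmol/kg (0.36, adjusted p = 0.044).

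**Figure D4:**
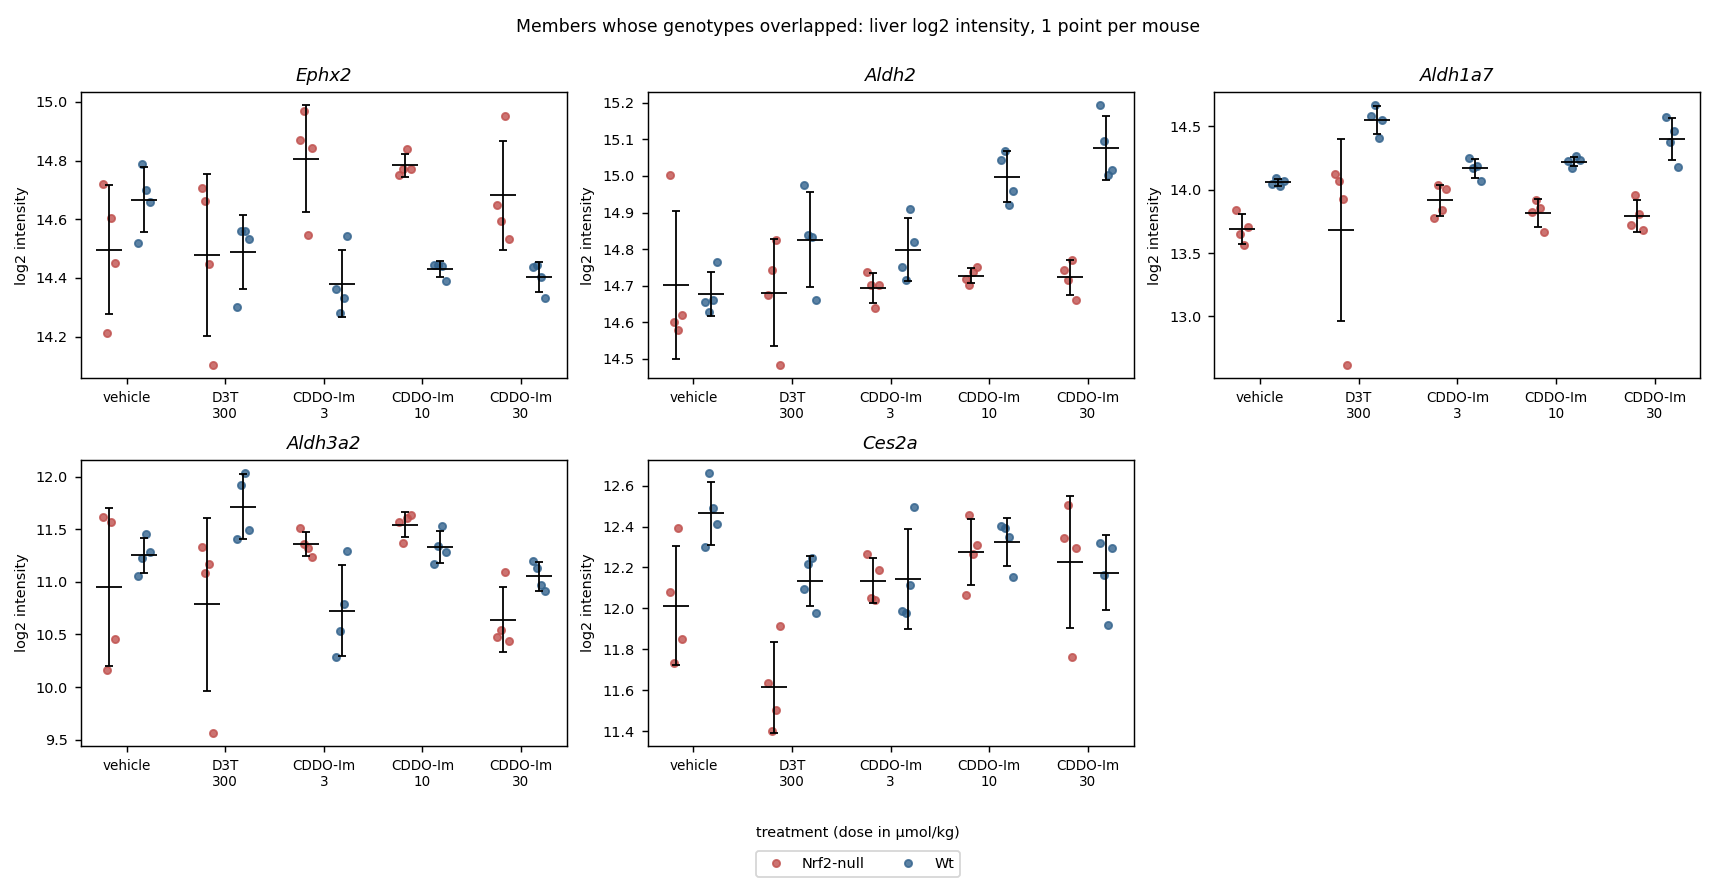
Log2 intensity of Ephx2, Aldh2, Aldh1a7, Aldh3a2 and Ces2a in every mouse (1 point per mouse, Nrf2-null left of Wt within each treatment), with doses in μmol/kg on the horizontal axis and the mean ± SD of 4 mice in black. The genotypes overlap in each panel, Wt Aldh2 is highest at 10 and 30 μmol/kg CDDO-Im, and 1 Nrf2-null D3T mouse lies far below its group for Aldh1a7 and Aldh3a2.

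The response itself was then compared between genotypes, as the log2 change in Nrf2-null mice minus that in Wt mice, so that a negative value means a lower change in Nrf2-null liver, whether a smaller rise or a fall. For 30 μmol/kg CDDO-Im, Ces1g, Aldh2 and Ephx1 had negative and Ephx2 a positive difference, where 11.9% of all genes were called, 1.78% negative and 10.1% positive. The median was -0.33 over the 9 members and 0.17 over all genes, and positive calls were 85.0% of all calls as deposited and 48.3% after centring. Ces1g had -1.52 ± 0.36 (SE, adjusted p = 0.0072), from a change of -0.39 in Nrf2-null and 1.13 in Wt mice, and this was called under every alternative tried. Aldh2 had -0.38 ± 0.10 (SE, adjusted p = 0.016) and was called in all but the fit of the 4 groups alone.

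Markers moved in the same contrast, and their part in these differences was not tested. Hepatocyte markers had a positive difference in 2 of 6 and a Kupffer cell marker a negative one in 1 of 6. The summed level of hepatocyte markers was 18.41 to 18.46 in Nrf2-null mice at 30 μmol/kg and 18.28 to 18.34 in Wt mice at this dose. That of Kupffer cell markers was 13.79 or higher in Nrf2-null mice at 30 μmol/kg and 13.55 to 13.87 in Wt mice at this dose. No endothelial or stellate cell marker was called, but their sums were apart between the genotypes, as with vehicle. At 30 μmol/kg endothelial sums were 12.22 to 12.44 in Nrf2-null and 11.62 to 11.85 in Wt mice. Stellate cell sums were 13.62 to 13.81 in Nrf2-null and 13.37 to 13.46 in Wt mice at this dose. Cela1, the 1 of 5 exocrine pancreas markers that was measured, had a positive difference and read 12.27, 9.64, 11.06 and 14.03 in Nrf2-null mice at 30 μmol/kg.

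Ephx1 had -0.67 ± 0.21 (SE, adjusted p = 0.030) at 30 μmol/kg and lost its call in 8 alternatives, and Ephx2 had 0.45 ± 0.15 (SE, adjusted p = 0.046) and lost it in 17, among them both other scalings and the replicate block. Ephx2 read 14.65, 14.59, 14.95 and 14.53 in Nrf2-null mice at 30 μmol/kg, against 14.72, 14.21, 14.61 and 14.45 in Nrf2-null vehicle mice, and 14.44, 14.45, 14.40 and 14.33 in Wt mice at 30 μmol/kg, against 14.52, 14.79, 14.70 and 14.66 in Wt vehicle mice. The Wt mice at this dose lay below all Wt vehicle mice, and the Nrf2-null groups overlapped. Aox1, called in Wt mice alone, had a difference of -0.59 (95% confidence interval -1.13 to -0.05, adjusted p = 0.14) that did not pass the test, and that did without Nrf2-null vehicle replicate 1 (-0.77, adjusted p = 0.041). Leaving out Wt vehicle replicate 4 or Nrf2-null replicate 1 at 30 μmol/kg left 2 of the 4 calls.

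For 10 μmol/kg CDDO-Im the responses of Ephx1 (-0.69 ± 0.21 SE, adjusted p = 0.044) and Ephx2 (0.52 ± 0.15 SE, adjusted p = 0.036) differed between genotypes, where 5.4% of all genes were called, 1.7% negative and 3.7% positive. A hepatocyte marker (1 of 6) had a positive difference too. No endothelial or stellate cell marker was called, but their sums were apart between the genotypes at this dose. Endothelial sums were 12.09 to 12.34 in Nrf2-null and 11.55 to 11.69 in Wt mice, and stellate cell sums 13.60 to 13.83 and 13.35 to 13.44. The part of these markers was not tested. The calls of Ephx1 and Ephx2 were near the threshold. Ephx1 lost its call in 15 alternatives, among them array weights, and Ephx2 in 11, among them centring. Both were lost without Wt vehicle replicate 2, Wt replicate 1 or Nrf2-null replicates 2 or 3 at 10 μmol/kg. Both were also lost with no expression minimum and with the clock score as a covariate. Ephx2 read 14.75, 14.77, 14.84 and 14.77 in Nrf2-null mice at 10 μmol/kg, all above the Nrf2-null vehicle mice, and 14.45, 14.45, 14.44 and 14.39 in Wt mice at this dose, all below the Wt vehicle mice. Its changes were thus of opposite sign, 0.29 (adjusted p = 0.24) in Nrf2-null and -0.24 (adjusted p = 0.12) in Wt mice, and neither was called by itself in the limma fit of all groups. Both passed the exact Wilcoxon test and were called with array weights (adjusted p = 0.024 in Nrf2-null and 0.012 in Wt mice). The Wt change was also called when only these 2 groups were fitted (adjusted p = 0.023), and the Nrf2-null change without Nrf2-null vehicle replicate 1.

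For D3T 0 of the 9 members differed by limma, where 0.0722% of all genes did. Unadjusted p-values were under 0.05 for Ephx1, Aox1 and Aldh1a7, with no share of all genes counted at that threshold. Ephx1 had the largest value of these, -0.93 ± 0.21 (SE, adjusted p = 0.055), from a change of -0.58 in Nrf2-null and 0.35 in Wt mice, and it was called after each array was centred, after a second quantile normalization, and without Nrf2-null vehicle replicates 2 or 4 or Nrf2-null D3T replicates 3 or 4. The value of Aldh1a7 was -0.50 (adjusted p = 0.36). It was -0.14 (adjusted p = 0.59) without Nrf2-null D3T replicate 4, the array that stood apart.

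Ces2a was lower with every treatment in Wt liver and was not called in any by limma without array weights. With array weights it was called for D3T (-0.35, adjusted p = 0.031), 3 μmol/kg (-0.42, adjusted p = 0.018) and 30 μmol/kg (-0.33, adjusted p = 0.022). No share of all genes is given for that fit. The values that follow are of the fit without weights. Its Wt changes were -0.33 with D3T and -0.32, -0.14 and -0.29 with 3, 10 and 30 μmol/kg CDDO-Im, and its Nrf2-null changes were -0.40 with D3T and 0.12, 0.26 and 0.21 with CDDO-Im. With D3T the 4 Wt mice read 12.09, 12.22, 12.25 and 11.98, against 12.30, 12.66, 12.49 and 12.41 in Wt vehicle mice, which is a full separation (adjusted p = 0.19). The difference between genotypes at 30 μmol/kg was 0.50 ± 0.20 (SE, adjusted p = 0.092). It was called without Nrf2-null vehicle replicate 3 (0.63, adjusted p = 0.039) or Nrf2-null replicate 3 at that dose (0.66, adjusted p = 0.023). Array weights also called it (0.70, adjusted p = 0.0067), and the difference at 10 μmol/kg (0.60, adjusted p = 0.034).

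The 5 probe sets of Aldh2 did not move alike. In Wt mice given 30 μmol/kg CDDO-Im the probe sets 1434987_at (0.82 ± 0.25 SE, adjusted p = 0.018) and 1434988_x_at (0.68 ± 0.21 SE, adjusted p = 0.019) rose as the representative 1448143_at did, with p-values adjusted over all 18935 kept probe sets. Of the other two, 1437410_at changed by -0.05 at 30 μmol/kg and rose by 0.71 at 10 μmol/kg (adjusted p = 0.016), and 1457155_at had 0.31 and 0.40 at these doses with no call. The representative probe set read 14.48 to 15.19 over the 40 mice and the other 4 read 6.20 to 9.76.

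Correlations of Ephx1 with Aox1 and Ces1g were far lower once the group means were taken off. Over the 40 mice the correlation of Ephx1 was 0.972 with Aox1 and 0.933 with Ces1g, and after each group's mean was taken off it was 0.415 and 0.128. Aldh1a1 and Aldh1a7 had 0.884 over the 40 mice and 0.830 within groups, and Aldh1a1 and Aldh3a2 had 0.627 and 0.827. The within-group values include Nrf2-null D3T replicate 4, which was low in all 3 genes, and all correlations rest on arrays normalized together. Ephx2 ran weakly against Ephx1, at -0.415 over the 40 mice and 0.0209 within groups.

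Over the means of the 10 groups, the genes most like Ephx1 among all genes tested were Abcc3 (Pearson's r = 0.988), which exports conjugates into blood, the glucuronosyltransferase Ugt2b5 (0.984) and the glutathione transferase Gstm1 (0.981). Aox1 was most like Ugt2b5 (0.989), the peptidase gene Pepd (0.982) and 9130409I23Rik (0.981). Ces1g was most like Arpp19 (0.987), Abcc3 (0.984) and the nucleoside diphosphatase gene Entpd5 (0.979), and Aldh2 was most like Akr1c13 (0.933), Faap24 (0.931) and Glis2 (0.930). For Ephx1, Aox1 and Ces1g these values rest on the gap between genotypes, which all 10 group means share.

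A list of 48 other enzymes of the same reactions had 32 measured genes. With vehicle, 5 of the 32 fell and 3 rose in Nrf2-null liver, with a median of -0.07, where 10.8% of all genes were called and 4.97% were called lower. Ces2b, a carboxylesterase, averaged 2.42 in Nrf2-null vehicle mice, below the expression minimum of log2 4, and 5.16 in Wt vehicle mice (adjusted p = 0.00038), so the size of its fall is not known. Other falls were those of Aox3 (-2.04, adjusted p = 0.0052), the neighbour and relative of Aox1, Mocos (-0.85, adjusted p = 6.7e-08), which sulfurates the molybdenum cofactor that aldehyde oxidases need, and Akr7a5 (-0.64, adjusted p = 1.9e-06), which reduces aldehydes. Aox3 and Aox1 are close relatives, and whether their probes bind both transcripts was not tested. The rises were Bche (0.36), Pon2 (0.34) and Aldh8a1 (0.16).

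With D3T in Wt liver Adh5, the alcohol dehydrogenase that clears formaldehyde, rose (0.19, adjusted p = 0.026) and Aldh6a1 fell (-0.21, adjusted p = 0.037) among these 32 genes, beside 4.23% of all genes called. At 10 μmol/kg CDDO-Im, beside 17.5% of all genes, Aldh6a1 rose (0.22, adjusted p = 0.011), and Mocos (-0.42, adjusted p = 0.0021) and Ces2b fell. Ces2b averaged 3.61 in treated mice, again below the minimum, and 5.16 in vehicle mice (adjusted p = 0.028). At 30 μmol/kg 3 rose, Ces2b (2.18, adjusted p = 0.0020), the xanthine dehydrogenase gene Xdh (0.48, adjusted p = 0.00096) and Pon2 (0.39, adjusted p = 0.0094), and 4 fell, Ces1e (-0.86, adjusted p = 0.032), Aadac (-0.43, adjusted p = 0.0012), Pon1 (-0.25, adjusted p = 0.0065) and Aldh8a1 (-0.20, adjusted p = 0.0046). These 7 of 32 stand beside 23.6% of all genes called, a like share, with 2.81% called higher, and the median of the 32 was 0.03. In Nrf2-null liver, beside 4.09% of all genes, D3T raised Adh5 (0.20, adjusted p = 0.016) and Adh7, which averaged 5.15 in D3T mice and 3.89, below the expression minimum, in vehicle mice (adjusted p = 0.0037).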

How the data were processed

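The members and the gene lists were chosen with earlier results of these data known. Liver RNA of 40 mice was hybridised 1 array per mouse, and the deposited values are log2 intensities of 45037 probe sets that the authors had background-corrected and normalized with GCRMA, whose version is not given in the sources used here. Nothing of the arrays' scanner output was used, so normalization across arrays could not be undone, and the number of arrays limits the precision. Probe sets that reached log2 4 on 3 arrays of some group were kept (18935), of which 16472 had 1 gene symbol in GEO's platform annotation. Another 932 probe sets of the table had several symbols and 9160 none listed. The probe set of highest mean stood for each gene. One model of the 10 groups was fitted with limma 3.58.1 in R 4.3.3, with trend and robust variances, and p-values had Benjamini-Hochberg adjustment over 9695 genes. The methods' exact Wilcoxon test was run as an alternative, at an unadjusted p under 0.05. The study used it after a Kruskal-Wallis test, present calls and a fold-change threshold, which were not applied here. A member that passed it here is thus not one that the study's whole procedure would call. Sums over markers are log2 of summed linear intensities. They run over measured markers for the group of Nrf2-null D3T replicate 4, and over all listed markers on the array in the comparisons. No 2 arrays held identical values (correlations 0.953 to 0.995). On simulated data for the D3T comparison, with 200 of 9695 genes changed, 90.0% of changes of log2 1 and 98.0% of log2 2 were recovered, with 6 false calls. Changes under log2 1 were not simulated, and every member changed by less than log2 1 with D3T in Wt liver. The simulated noise was independent between genes and held no outlying array. Every measured member was named. Genes most alike were the 3 with the highest correlation over group means for Ephx1, Aox1, Aldh2 and Ces1g. Other enzymes were named where called, at most 4 in each direction. Alternatives were other scalings, expression minimums, variance settings, probe set rules, a clock covariate, a replicate block and leaving out each mouse in turn.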

Additional observations from a re-analysis of the deposited data

Results flagged for a closer look

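The highest or lowest mouse stood far from its group in 10 of 90 checks of a member in a group of 4, and chance flags about 1 in 20 groups. Of these, 3 were Nrf2-null D3T replicate 4, at 13.78 for Aldh1a1 (15.10 to 15.25 in the other 3), 12.61 for Aldh1a7 (13.93 to 14.12) and 9.56 for Aldh3a2 (11.09 to 11.33). Another 2 were Nrf2-null replicate 3 at 30 μmol/kg CDDO-Im, at 15.21 for Aldh1a1 (14.70 to 14.73) and 11.10 for Aldh3a2 (10.44 to 10.54). Nrf2-null replicate 4 at 3 μmol/kg had 15.25 for Aldh1a1 (15.16 to 15.18), Nrf2-null vehicle replicate 1 had 15.00 for Aldh2 (14.58 to 14.62), and Nrf2-null replicate 2 at 10 μmol/kg had 9.66 for Ces1g (8.84 to 8.95). For Ephx2, Wt D3T replicate 1 was at 14.30 (14.53 to 14.56) and Wt replicate 4 at 10 μmol/kg at 14.39 (14.44 to 14.45).

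Responses that differed between the genotypes by the test of the difference itself, Nrf2-null minus Wt, were those of Ephx1 (-0.69) and Ephx2 (0.52) at 10 μmol/kg CDDO-Im, and those of Ces1g (-1.52), Ephx1 (-0.67), Aldh2 (-0.38) and Ephx2 (0.45) at 30 μmol/kg.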

How the results depend on the processing

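Of the 21 called changes of single members, 9 were called under all alternatives run for them, namely those of Ces1g, Aox1, Ephx1 and Aldh2 in Wt mice given 30 μmol/kg CDDO-Im, of Aox1 at that dose against D3T, of Ces1g, Aox1 and Ephx1 between the vehicle groups, and of the Ces1g response at 30 μmol/kg between genotypes. Over 462 values under alternatives, 384 kept call and direction, 78 lost the call (46 of them among the 216 that left out a mouse) and 0 turned direction.

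The number of members called moved by over 1.5 times as follows, and the cause was not tested. The shares of all genes called that are given above belong to the unaltered fit, not to these alternatives or to fits that leave out a mouse. No share stands beside the moved counts, so they cannot be read as results about the members. With only the groups of the comparison fitted, it was 2 for D3T (0 in the fit of all groups), 5 for 10 μmol/kg (2), 7 for 30 μmol/kg (4), 2 for 10 μmol/kg against D3T (0), 5 for 30 μmol/kg against D3T (2), 2 for 30 against 10 μmol/kg (0), 0 for D3T in Nrf2-null liver (3), and, for the genotype difference, 1 at 10 μmol/kg (2) and 2 at 30 μmol/kg (4). With array weights it was 4 for D3T, 3 for 3 μmol/kg, 4 for 10 μmol/kg, 7 for 30 μmol/kg, 2 for 10 μmol/kg against D3T, 4 for 30 μmol/kg against D3T, 2 for 30 against 10 μmol/kg, 3 each for 3 and 10 μmol/kg in Nrf2-null liver, and 8 between the vehicle groups. The Wilcoxon test passed 3 and 5 members for D3T and 10 μmol/kg, 1 for 10 μmol/kg against D3T, 4 for 30 μmol/kg against D3T, 2 for 30 against 10 μmol/kg, and 0 with D3T and 1 at 10 μmol/kg in Nrf2-null liver. Its counts of 0 at 3 μmol/kg and 6 at 30 μmol/kg in Wt liver did not move by over 1.5 times. Centring called 1 for 10 μmol/kg against D3T, 4 for 30 μmol/kg against D3T, 1 for 30 against 10 μmol/kg, and 1 each for the genotype difference with D3T and 10 μmol/kg. A second quantile normalization called 1 for 30 against 10 μmol/kg and 1 for the genotype difference with D3T. The clock score as a covariate called 0 at 10 μmol/kg, 1 against D3T and 0 for the genotype difference. No expression minimum called 0 and 2 for the genotype difference at 10 and 30 μmol/kg, a minimum of log2 5 called 1 for 30 against 10 μmol/kg, plain variances called 1 for the genotype difference at 10 μmol/kg, and the mean of the kept probe sets called 1 for 30 μmol/kg against D3T.

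Leaving out each mouse gave 1 to 5 members for D3T in Nrf2-null liver, 0 to 1 at 3 and 10 μmol/kg and 0 to 0 at 30 μmol/kg there, 3 to 5 between the vehicle groups, and 0 to 1, 0 to 2 and 2 to 4 for the genotype difference with D3T, 10 and 30 μmol/kg. In Wt liver it gave 2 to 2 at 10 μmol/kg, 4 to 4 at 30 μmol/kg, 2 to 2 for 30 μmol/kg against D3T, and 0 to 0 in the rest. Replicate numbers did not pair the mice, with correlations of deviations between -0.22 and 0.37. The replicate block called 1 member for 30 against 10 μmol/kg (Aox1, 0.51, adjusted p = 0.039) and 3 for the genotype difference at 30 μmol/kg, without Ephx2, and left the other counts as they were. Where few genes were called, the share of higher calls also moved, to 57.9% after centring from 47.8% as deposited at 3 μmol/kg in Wt liver, to 76.6% and 60.0% from 40% and 28.6% at 3 and 10 μmol/kg in Nrf2-null liver, and after the second quantile normalization to 54.1% from 41.2% at 30 μmol/kg there and to 53.7% from 42.9% for the genotype difference with D3T. All 13 probe sets of the members passed the expression minimum, the only measure of signal over background used here.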
